A study of Rattus norvegicus with 8 samples.

Results

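The measurements concern 9 myelin and oligodendrocyte genes, Mbp, Mobp, Mal, Mag, Mog, Cnp, Ermn, Gpr37 and Olig2, in the hypothalamus of female and male rats. The genes were chosen with earlier results of these data known. Every spot that was not a control and that the array files name for 1 of these genes was taken. This gave 15 probes on 33 spots, out of 30367 probes for 19204 named genes on 42877 spots. The females were in estrus, both sexes were Sprague Dawley rats of 3 to 4 months, and the labels name no genetic change or agent given to either sex. Total RNA was labelled with Cy3 or Cy5, and each of the 4 two-colour arrays of 1 slide carried 1 female and 1 male sample in opposite dyes, with females in Cy3 on arrays 1 and 3 and in Cy5 on arrays 2 and 4. The question stated in the labels was the difference between the sexes, with a view to genes of the cytoskeleton. The labels number 4 samples of each sex (F1 to F4 and M1 to M4, the digit giving the array) without saying how many animals went into a sample. The p-values measure the spread of the female over male ratios of the 4 arrays that terms for sex and dye leave. Whether that is a spread between single animals is not known.

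Oligodendrocytes are the glial cells that wrap axons of the central nervous system in myelin, a stack of compacted membrane that speeds the nerve impulse. The compact part is held together by small basic proteins and proteolipids, the inner and outer surfaces carry adhesion molecules of the immunoglobulin family, and the cytoplasmic channels that stay open hold enzymes and cytoskeletal proteins. Transcription factors of the lineage, Olig2 among them, act from the precursor stage onward, whereas most of the other 8 genes are switched on as the cell matures.

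Between 77.6% and 87% of the spots were well above background in each sample, 0 spots were saturated, and the number of arrays limits the precision. All 8 hypothalamic marker genes looked up (Avp, Oxt, Pomc, Hcrt, Pmch, Agrp, Npy and Trh) were well above background in all 8 samples, and the Y-linked Ube1y1 was so in 4 of 4 males and 0 of 4 females. Each of the 9 members had a probe well above background in all 8 samples. In male M2 the median level of markers of cortex, hippocampus and striatum stood 1.33 log2 units above the mean of its dye. In the other samples it stood at -0.42 to 0.31. M2 was the highest sample for 8 of the 11 markers and the lowest for 3 (Drd2, Penk and Rgs9). Values without array 2, which carries M2, are given beside the counts of the gene lists and where a member's ratio depends on that array.

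The probes that carry the results are 60 bases long, and bases 31 to 60 of those that matter most are shown here because both of the first pair hold the letters AATAAA, the common signal before the polyadenylated end of a transcript, and because Mbp and Ermn were read at a pair of places each. Capitals mark AATAAA on the probe's own strand. Of the 15 member probes, 2 held these letters in the bases shown, against 6.74% of all 30367 probes.
Mbp A_64_P017163: tattgaAATAAAatAATAAActtgcaatga
Mag A_64_P019613: aaaagggacatgaAATAAAtgtcctaatga
Mbp A_64_P017160: cctgtgaattaaaatgtatcagaagataaa
Ermn A_42_P779687: attgtgtgactgctggcatgtcttaaatga
Ermn A_44_P314110: aacagtaatagtaagagaggcagtcaaggg
Gpr37 A_44_P196217: agaactgattttgcagattaatatttgtgc
On the rn4 build, which the array files use, the first Mbp probe lies at chr18:79057264-79057323 on the plus strand and the other at chr18:79026442-79026501 on the same strand. The Mag probe lies at chr1:85954601-85954660 on the minus strand. The Ermn probes lie at chr3:39821050-39821109 and chr3:39823067-39823126 and the Gpr37 probe at chr4:52167284-52167343, all on the minus strand. Whether each position is in an exon or an untranslated region of these genes was not looked up, since no annotation of this build was used here.

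RefSeq windows of 250 bases before the annotated gene start (build GRCr8) were found for 7 of the 9 members, Mbp with 2 starts, and not for Mog and Ermn. CTGGCAC, searched on both strands, is a form of the sequence bound by MYRF, the transcription factor that switches on myelin genes in maturing oligodendrocytes of mice. It was present in the windows of Cnp, Mag, Mal and Olig2, which is 4 of 7 members, against 3.78% of 33469 windows of all genes, and its other form CTGGTAC was present in 0 of 7 against 1.78%. The looser CTGGNAC, searched first, was in 6 of 7 against 14.8%, and these letters were narrowed after that count was seen. The stretches of 60 bases that hold it are shown 5′ to 3′ on the strand of the gene, with CTGGCAC or its reverse complement GTGCCAG in capitals.
Mag: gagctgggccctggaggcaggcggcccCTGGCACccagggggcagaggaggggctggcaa
Cnp: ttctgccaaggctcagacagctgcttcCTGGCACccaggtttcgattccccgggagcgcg
Mal: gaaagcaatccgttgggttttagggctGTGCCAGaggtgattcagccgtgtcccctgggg
Olig2: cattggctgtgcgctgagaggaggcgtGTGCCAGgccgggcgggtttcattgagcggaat
The stretches lie at chr1:95291106-95291165 (minus strand) for Mag, chr10:86011353-86011412 (plus) for Cnp, chr3:135341517-135341576 (minus) for Mal and chr11:43961524-43961583 (plus) for Olig2. The match begins 94 bases before the start in Mag, 124 in Cnp, 126 in Mal and 34 in Olig2. The letters ACAAAG, a core bound by Sox factors, were found on either strand in 4 of 7 members (Cnp, Mag, Mbp and Mobp) against 16.3% of all windows, with 8 matches in Mobp. CAGCTG, an E-box, was found in Cnp and Mbp against 12% of all windows. No binding was measured in these samples, and a match is a description of letters only.

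At their brightest probe all 9 members had a fitted log2 ratio of female over male below 0, that is, a higher level in males, against 43.8% of 14603 genes. Their median was -0.26, against 0.02 over all genes. No test was made of this count or median, since earlier results of these data were known at the choice of the members. None passed the test: by limma with Benjamini-Hochberg adjustment over 21995 probes, 0 of the 14 member probes tested had an adjusted p under 0.05, and neither did any other probe on the arrays (0%), where 1870 probes had an unadjusted p under 0.05. At that unadjusted threshold 2 of the 9 members, Gpr37 and Ermn, were lower in females, against 3.51% of all genes, and none was higher, against 5.01%. In these bulk samples fewer cells of a type and less RNA per cell cannot be told apart. With the trend of the ratio along the rows of the arrays removed, a correction chosen after seeing the data, the members stood at 9 of 9 below 0 with a median of -0.29, against 51.4% of all genes, and 3 of them (Mal, Gpr37 and Ermn) had an unadjusted p under 0.05 with a lower level in females, against 4.49%. Without array 2, which carries M2, they stood at 7 of 9 below 0 with a median of -0.22, against 42.1% of all genes below 0.

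Levels below are log2 levels of a sample in its own dye after normalization, minus the mean of the 4 samples in the same dye, which hold 2 females and 2 males. These dye-centred levels compare samples at 1 probe and say nothing of one probe against another. Over the 9 members the median dye-centred level was -0.09, -0.20, -0.33 and -0.21 in females F1 to F4 and 0.06, 0.14, 0.18 and 0.18 in males M1 to M4. The 4 females were thus all below the 4 males at this median, although single members did not all separate the sexes. F3 was the lowest sample for 4 members (Mog, Mobp, Cnp and Mal) and M2 the highest for 4 (Mbp, Mag, Mobp and Ermn). F3 was also lowest for 16 of 36 other mature oligodendrocyte genes, 7 of 11 choroid plexus markers and 4 of 5 Schwann cell markers. The count was 4 of 11 for cortex, hippocampus and striatum markers and 2 of 12 each for neuron and microglia markers. It was 1 of 11 for endothelial markers, 0 of 13 for precursor and lineage factor genes and 0 of 12 for astrocyte markers.

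**Figure D1:**
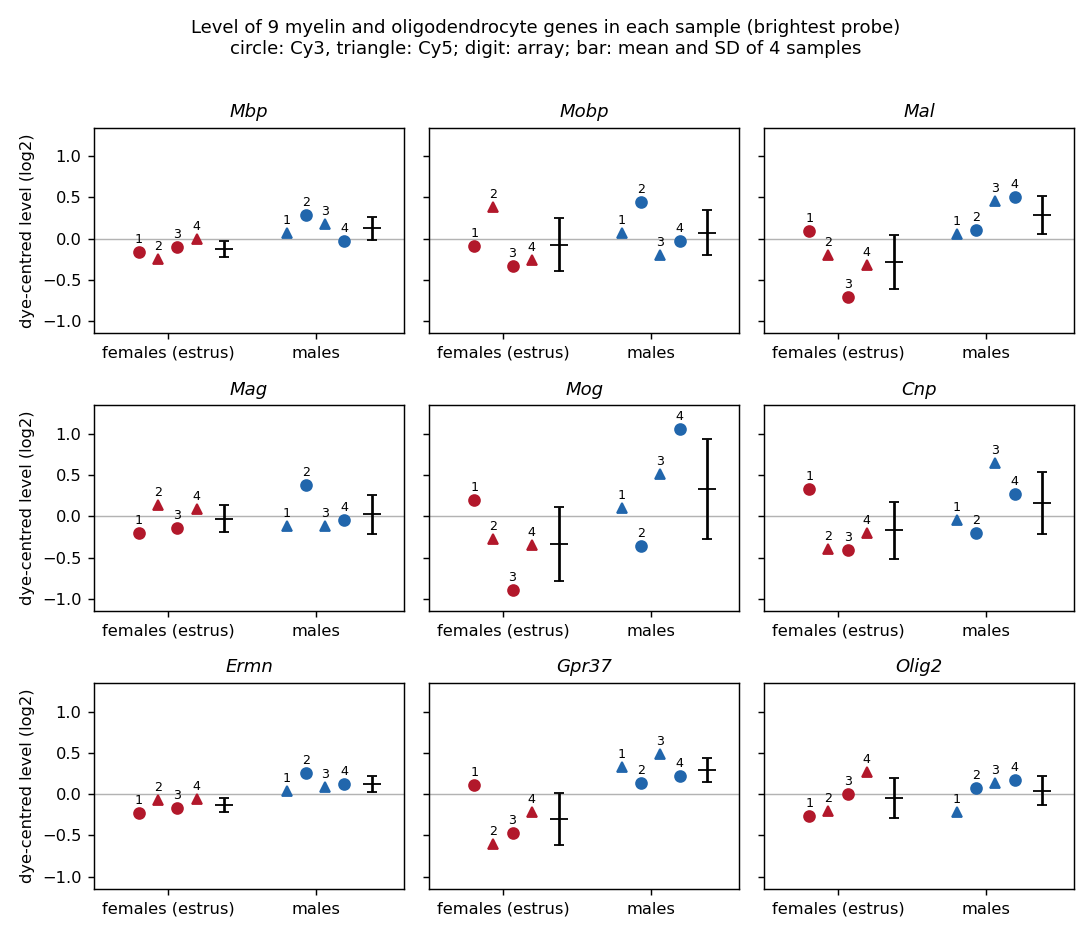
Dye-centred log2 level (vertical axis) of each of the 9 genes at its brightest probe, in 4 females in estrus and 4 males, with the mean and SD of each sex at the side. Females and males do not overlap for Ermn and Gpr37, and F3 is the lowest sample for Mog, Mobp, Cnp and Mal.

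Gpr37 encodes a receptor of the G protein-coupled family that restrains the maturation of oligodendrocytes in mice. Its dye-centred level was 0.12, -0.60, -0.48 and -0.22 in F1 to F4 and 0.34, 0.14, 0.49 and 0.22 in M1 to M4. Every male was above every female, with F1 nearest to the males and M2 nearest to the females. The normalized log2 level was 11.97 ± 0.36 (SD, n = 4) in females and 12.56 ± 0.09 (SD, n = 4) in males. The fitted log2 ratio was -0.59 ± 0.15 (SE), a level 1.51-fold higher in males, with limma's adjusted p = 0.555 over all probes (unadjusted p = 0.0151). The ratio on arrays 1 to 4 was -0.07, -0.89, -0.81 and -0.59. It was below 0 on all 4 arrays, as for 5.51% of all genes.

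Ermn encodes ermin, an actin-binding protein of mature oligodendrocytes that lies in the cytoplasm at the outer edge of myelin. It is the member closest to the cytoskeleton. At its brightest probe, printed on 10 spots, the dye-centred level was -0.22, -0.07, -0.17 and -0.05 in F1 to F4 and 0.04, 0.26, 0.08 and 0.13 in M1 to M4. All 4 males were above all 4 females, by a small distance between F4 and M1. The fitted log2 ratio was -0.26 ± 0.07 (SE), 1.20-fold higher in males, with limma's adjusted p = 0.555 (unadjusted p = 0.0153). The ratios on the 4 arrays lay between -0.38 and -0.20. On array 3 the SD between the 9 spots used was 0.32, against 0.09 to 0.17 on the other arrays. There 1 spot, in row 513, stood at 0.95 as Cy5 over Cy3, with the next highest at 0.27. As female over male that spot was at -0.95, the lowest of spots that ran up to 0.12. It thus moved the ratio of array 3 towards a lower level in the female. The ratio and levels of array 3 without that spot were not computed. The other Ermn probe gave -0.52 ± 0.16 (SE), with dye-centred levels of -0.69 to 0.13 in females and 0.21 to 0.35 in males, so the sexes were apart there too. Its limma adjusted p was 0.555 (unadjusted p = 0.0311). The probes of Ermn thus had the same direction on all 4 arrays. Among 14488 genes with a level in all 8 samples, 2.36% had all females below all males at the brightest probe, and of the 9 members Ermn and Gpr37 did.

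Ermn and Gpr37 kept their direction without array 2, at -0.22 and -0.52, and with the trend along the rows removed, at -0.26 and -0.58. Their smallest adjusted p over 17 alternatives was 0.0837 for Ermn and 0.101 for Gpr37, both without array 4.

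Mbp encodes myelin basic protein, which joins the cytoplasmic faces of compact myelin. At the brighter probe, which holds AATAAA, the dye-centred level was -0.16, -0.24, -0.10 and -0.00 in F1 to F4 and 0.07, 0.29, 0.18 and -0.03 in M1 to M4. The sexes overlapped only through F4 and M4, the pair of array 4, and M2 was highest. The normalized log2 level was 16.83 ± 0.10 (SD, n = 4) in females and 17.08 ± 0.14 (SD, n = 4) in males. The fitted log2 ratio was -0.25 ± 0.11 (SE) with limma's adjusted p = 0.555 (unadjusted p = 0.0882), and it was -0.11 without array 2 and -0.39 without array 4. At the fainter probe the ratio was -0.16 ± 0.12 (SE), below 0 on 3 arrays, and the sexes overlapped.

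Mal encodes a proteolipid of compact myelin that takes part in membrane sorting. Its dye-centred level was 0.09, -0.20, -0.71 and -0.32 in F1 to F4 and 0.06, 0.11, 0.46 and 0.51 in M1 to M4. Only F1 reached into the range of the males. The fitted log2 ratio was -0.57 ± 0.23 (SE), 1.48-fold higher in males, with limma's adjusted p = 0.555 (unadjusted p = 0.0675). The probe lies in row 40, near the edge where the dyes differ most, and its ratio was 1.01 and -0.19 on the arrays with the female in Cy3 and -1.28 and -1.80 on those with the female in Cy5. It ranged with the arrays, from -0.27 without array 3 (unadjusted p = 0.190) to -0.87 without array 1 (unadjusted p = 0.00995). With the trend along the rows removed the ratio was -0.69 ± 0.19 (SE), with an unadjusted p of 0.0220 and limma's adjusted p = 0.579.

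Mobp encodes the myelin-associated oligodendrocyte basic protein, another component of compact myelin, and had 3 probes. The brightest gave a log2 ratio of -0.15 ± 0.07 (SE), below 0 on 3 arrays, with limma's adjusted p = 0.555 (unadjusted p = 0.0915). Its dye-centred level ranged from -0.33 to 0.39 in females and from -0.20 to 0.45 in males, so the sexes overlapped, and both samples of array 2 were the highest of their sex. The other probes gave 0.07 ± 0.13 (SE) and 0.01 ± 0.08 (SE), so the 3 probes disagreed in sign. These 2 probes lie in rows 29 and 34, and with the trend along the rows removed they gave -0.06 and -0.11, the sign of the brightest probe.

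**Figure D2:**
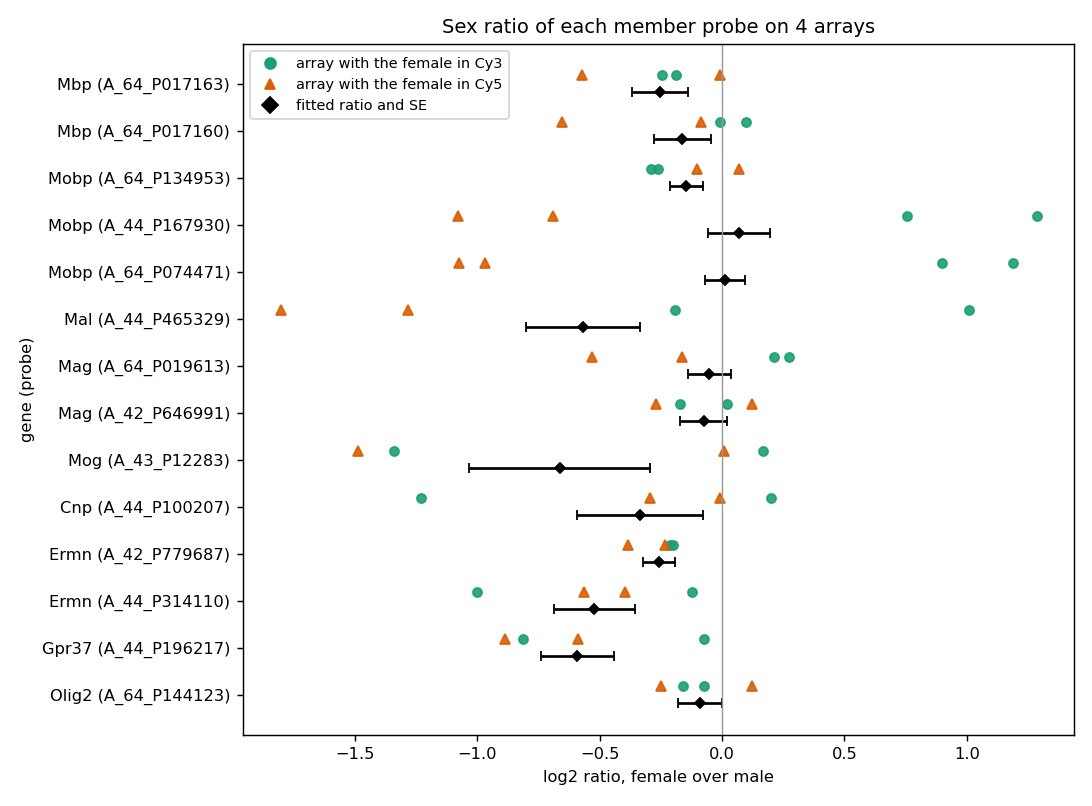
Log2 ratio of female over male (horizontal axis) of the 14 member probes tested, on each of the 4 arrays (circles with the female in Cy3, triangles with the female in Cy5) and as fitted with its standard error (diamonds). The 4 arrays are below 0 for Gpr37, both probes of Ermn and the brighter probe of Mbp, and 2 probes of Mobp split by dye.

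Mag and Mog encode adhesion molecules of the immunoglobulin family. Mag lies on the inner face of myelin, against the axon, and Mog on its outermost surface. Mag had almost no difference by sex, with log2 ratios of -0.05 ± 0.09 (SE) and -0.07 ± 0.10 (SE) at its 2 probes, each below 0 on 2 of 4 arrays. At the brighter probe the dye-centred level was -0.20, 0.14, -0.14 and 0.09 in F1 to F4 and -0.11, 0.38, -0.11 and -0.04 in M1 to M4. The sexes overlapped and M2 stood above the other males. Without array 2 its ratio was 0.04.

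Mog had the largest fitted ratio of the 9 genes and the largest error, -0.66 ± 0.37 (SE), with limma's adjusted p = 0.566 (unadjusted p = 0.143). Its dye-centred level was 0.19, -0.28, -0.90 and -0.34 in F1 to F4 and 0.10, -0.36, 0.52 and 1.07 in M1 to M4. The sexes overlapped, and M4 and F3 were the extremes of all 8 samples. On arrays 1 and 2 the ratio was 0.17 and 0.01, and on arrays 3 and 4 it was -1.34 and -1.49, so the fitted value rests on the last 2 arrays. It was -0.29 without array 3 or array 4 and -1.04 without array 1 or array 2.

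Cnp encodes CNPase, an enzyme of the uncompacted cytoplasmic channels of myelin that binds the cytoskeleton. Its dye-centred level was 0.34, -0.40, -0.40 and -0.21 in F1 to F4 and -0.04, -0.21, 0.65 and 0.27 in M1 to M4. The sexes overlapped, with F1 above 3 of the 4 males. The fitted log2 ratio was -0.33 ± 0.26 (SE), with limma's adjusted p = 0.620 (unadjusted p = 0.260). The ratio on array 3 was -1.23, and without that array the fitted ratio was 0.02, while without array 1 it was -0.69.

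Olig2 encodes the transcription factor that specifies oligodendrocyte precursors and stays expressed in the mature cell. Its dye-centred level ranged from -0.26 to 0.27 in females and from -0.21 to 0.18 in males, and the highest and lowest samples, F4 and F1, were both females. The log2 ratio was -0.09 ± 0.09 (SE), with limma's adjusted p = 0.683, and it was 0.00 without array 2. The other Olig2 probe was well above background in 1 of 4 females and 2 of 4 males and was not tested.

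The members did not vary as 1 block across the samples. Over their 36 pairs the Pearson correlation of the dye-centred levels across 8 samples ran from -0.48 (Cnp with Mag) to 0.91 (Mal with Mog), with a median of 0.32, and 28 pairs were above 0. Cnp, Gpr37, Mal and Mog correlated at 0.70 to 0.91 with each other, while Mag with Mobp stood at 0.72 and Mbp with Ermn at 0.81. The 2 samples of an array share its hybridization, so these 8 points are not independent and the values are a description.

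The 5 genes whose dye-centred levels were most like the mean of the members, of 14479 ranked over the 8 samples, were Tprn (r = 0.98), Rnf6 (0.97), Cdk17 (0.97), Zc3hav1l (0.97) and Pls1 (0.96). Spearman's rho was 0.93 to 0.98, and r was 0.93 to 0.98 without F3 and M4, the samples farthest from the median. They were picked as the highest, so no test applies. Of the other myelin and mature oligodendrocyte genes 16 of 34 had a correlation above 0.5 with the members, against 1667 of the 14479 genes ranked. Of the precursor and lineage factor genes 2 of 13 did. So did 5 of 10 choroid plexus markers and 3 of 5 Schwann cell markers. For astrocyte markers it was 1 of 12, for neuron and microglia markers 2 of 11 each and for endothelial markers 3 of 11. Markers of cortex, hippocampus and striatum had 1 of 11.

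On every array the ratio of Cy5 to Cy3 climbed along the rows, and this bears on where a member's probes lie. After loess, the median over the spots in the first of 8 bands of rows was -0.65, -0.25, -0.50 and -0.44 on arrays 1 to 4, and in the last band it was 0.08 to 0.15. The Mag probe printed on 10 spots shows the same climb, with an SD between its spots of 0.26 to 0.35 on the 4 arrays, which was 0.14 to 0.16 with the trend removed. The fit has 1 dye term per gene, the same for all arrays, while the climb differed between arrays, so part of it can remain in the sex ratio. Removing the trend turned the sign of the 2 fainter Mobp probes and moved the share of all genes below 0 from 43.8% to 51.4%. Of the member probes the 2 fainter probes of Mobp had a dye difference past the threshold, against 12.7% of all probes: their ratio on arrays with the female in Cy5 minus that on arrays with the female in Cy3 was -1.91 and -2.07 log2 units, with limma's adjusted p = 0.0265 and 0.0218. With the trend removed no probe passed for dye, the members included, and 0 of 21995 passed for sex (1810 at an unadjusted p under 0.05).

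**Figure D3:**
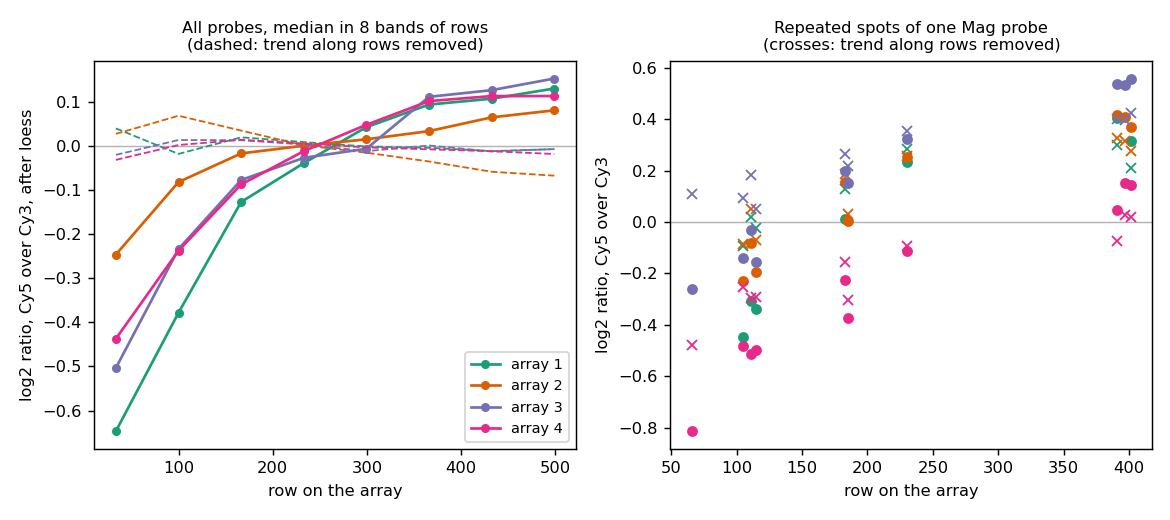
Log2 ratio of Cy5 over Cy3 (vertical axes) against the row on the array (horizontal axes), for all probes as medians of 8 bands of rows (left) and for the spots of 1 Mag probe (right), with outlier spots left out. The first band lies at -0.65 to -0.25 and the last at 0.08 to 0.15 on the 4 arrays before the trend is removed (solid lines and filled circles).

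Of 39 other myelin and mature oligodendrocyte genes 36 were tested, and 30 (83.3%) had a ratio below 0, against 43.8% of all genes. Their median was -0.15. At an unadjusted p under 0.05, 5 of the 36 were lower in females, against 3.51% of all genes, and none was higher, against 5.01%, while 0 passed after adjustment over all probes, the smallest adjusted p being 0.555. Efhd1, a mitochondrial protein that binds calcium, had -0.73 ± 0.24 (SE), and Bin1, which bends membranes, had -0.21 ± 0.07 (SE). Tspan2, a tetraspanin of oligodendrocytes, had -0.30 ± 0.10 (SE), and Car2, the carbonic anhydrase of these cells, had -0.31 ± 0.11 (SE). Without array 2 these last 2 stood at -0.19 and -0.17. Myrf itself had -0.20 ± 0.08 (SE) with an unadjusted p of 0.0660.

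The direction of this longer list differed between arrays. On arrays 1 to 4 the genes below 0 were 14 of 34, 28 of 36, 21 of 36 and 29 of 36, against 47.5%, 50.9%, 48.1% and 52% of all genes. The 2 arrays with the female in Cy5 thus had most of the genes below 0. For the members the counts were 5, 7, 8 and 8 of 9. Without array 2 the list stood at 25 of 34 below 0, against 42.1% of all genes. Without array 3 it stood at 22 of 34 with a median of -0.08, against 42.7% of all genes below 0. Without array 4 a total of 1479 of 21826 probes (6.78%) passed the adjusted threshold, among them Car2, Sirt2 and Anln of this list, named here because they passed, and none of the members.

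Of 15 genes of oligodendrocyte precursors and lineage transcription factors 13 were tested and 7 had a ratio below 0, with a median of -0.03. None had an unadjusted p under 0.05 in either direction. Pdgfra, the growth factor receptor that marks precursors, had -0.33 ± 0.32 (SE), and Sox10, a transcription factor of the whole lineage, had -0.03 ± 0.08 (SE). The smallest p-values were those of Sox8 (-0.21), Bcas1 (-0.19), Neu4 (-0.13), Cspg4 (0.12) and Nkx6-2 (-0.09), from 0.0694 for Sox8 to 0.281 for Nkx6-2. With the trend along the rows removed the count below 0 was 8 of 13, against 51.4% of all genes. Without array 2 it was also 8 of 13, with a median of -0.06, against 42.1% of all genes below 0. Whether the precursor list differs from the mature genes was not tested.

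**Figure D4:**
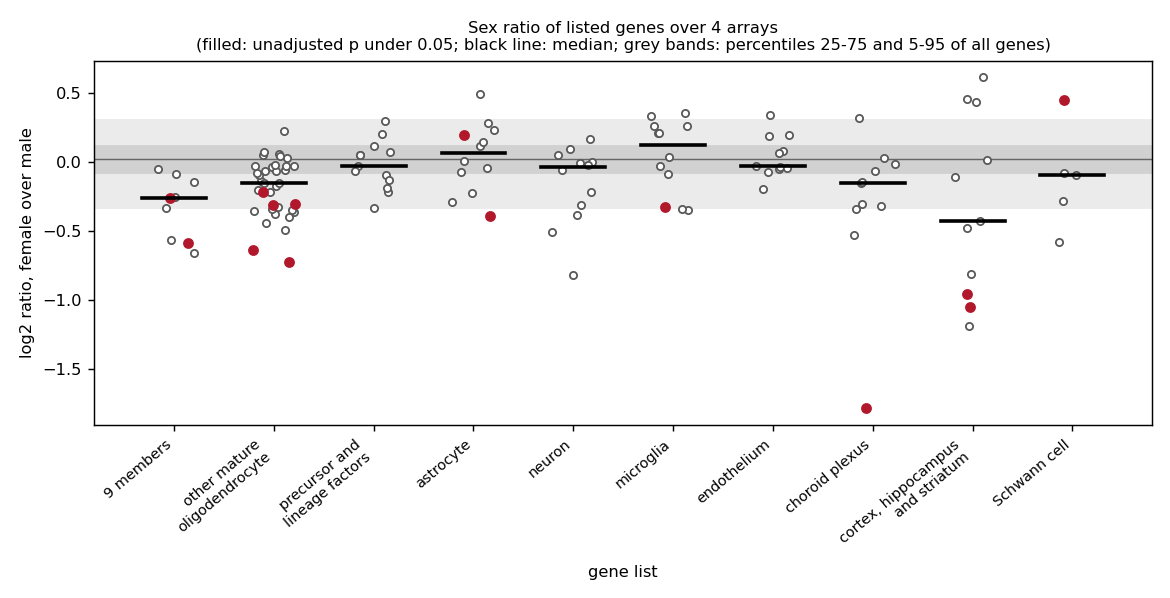
Log2 ratio of female over male (vertical axis) of each tested gene in the myelin lists and in the marker lists of other cell types and tissues, with list medians as black lines and percentiles 25 to 75 and 5 to 95 of all genes as grey bands. The median is -0.26 for the 9 members, -0.15 for the other mature oligodendrocyte genes and -0.03 for precursor and lineage factor genes.

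Markers of other cells and of neighbouring tissue were measured beside these lists. The median ratio was 0.06 for 12 astrocyte markers (Gfap -0.39, Aqp4 -0.22, Slc1a3 0.01), -0.04 for 12 neuron markers (Rbfox3 0.05, Snap25 -0.82, Syt1 -0.22) and 0.13 for 12 microglia markers (Aif1 0.35, Cx3cr1 -0.03, Csf1r -0.35). It was -0.03 for 11 endothelial markers (Cldn5 -0.20, Pecam1 0.19, Flt1 -0.03). These lists held 12 of 12, 12 of 12, 12 of 12 and 11 of 12 genes that were well above background in all 8 samples.

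The other marker lists were of neighbouring tissue and of peripheral nerve. Choroid plexus markers had a median of -0.15 (Ttr -1.79, Folr1 -0.06) with 9 of 11 below 0, and their median dye-centred level ran from -0.28 to -0.00 in females and from -0.14 to 0.37 in males, M4 being highest. The third defining marker, Kl, was well above background in 1 of 8 samples. Markers of cortex, hippocampus and striatum had a median of -0.43 with 7 of 11 below 0 (Neurod6 -0.96, Neurod2 -1.19). M2 was the highest sample for 8 of the 11. It was the lowest for the other 3, Drd2 (0.44), Penk (0.62) and Rgs9 (0.46), whose ratios were above 0. Schwann cell markers, tested because Mbp and Mag are also made in peripheral nerve, had a median of -0.09 with 4 of 5 below 0 (Prx -0.28, Pmp2 -0.08), and were well above background in all 8 samples for 5 of 5 genes found. Without array 2, a setting added for these lists after seeing the data, the median was -0.00 for cortex, hippocampus and striatum markers (Neurod6 -0.49, Neurod2 -0.39), -0.26 for choroid plexus markers with 10 of 10 below 0 (Ttr -2.22) and -0.23 for Schwann cell markers. Snap25 then stood at -0.25 and Syt1 at -0.02, and the astrocyte median turned from 0.06 to -0.07. The median without array 2 was -0.08 for neuron, 0.11 for microglia and -0.01 for endothelial markers. The part of these cells and tissues in the ratios of the members was not tested.

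**Figure D5:**
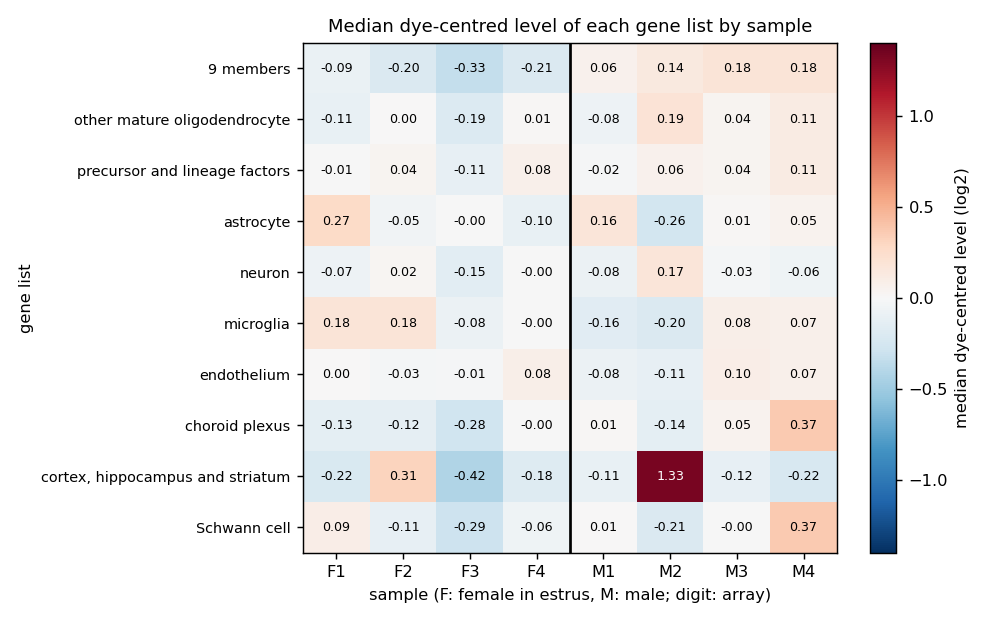
Median dye-centred log2 level of each gene list (rows) in each of the 8 samples (columns), as printed in the cells. The 9 members lie at -0.33 to -0.09 in females and 0.06 to 0.18 in males, and the cortex, hippocampus and striatum list stands at 1.33 in M2.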

How the data were processed

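Hypothalamic RNA of 4 female and 4 male samples was measured on 4 two-colour arrays. Per the submitters' processing notes, Agilent Feature Extraction (10.7.3.1) read the scans. Spot and local background signals are intensity values as scanned, per the file headers. The scanner software's log ratio is a log10 of red over green computed after that software had subtracted background, detrended and balanced the dyes, per the file headers. The deposited table of the authors' processed values is in log2, equal within 0.01 to the log2 of median signal above local background less a constant for each column (100% of 27946 to 30846 values). Its column medians were 0, so scale and centring are settled. Columns of other samples numbered 0.

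Mean signals were corrected with normexp (offset 50) and normalized by loess in limma 3.58.1 (R 4.3.3, data.table at version 1.17.8), with control spots at weight 0. The 931 to 1096 outlier spots of an array were dropped, and repeated spots entered as their mean. Testing required a majority (over 0.5) of a probe's spots well above background in every sample of 1 sex or of both, and 21995 probes could be fitted. The within-array log2 ratio was fitted with terms for sex and dye (lmFit, eBayes), with Benjamini-Hochberg adjustment and a threshold of 0.05. A gene stands at its brightest probe. Levels per channel followed Aquantile normalization. Accessions named 17328 probes, the array files 5371 more, and 7668 had no name. Sequences were read with pandas 2.3.3 under Python 3.11.15, and figures drawn with matplotlib 3.10.9.

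The array shared by a female and a male is the block, since each ratio is taken within it. Over 14488 genes, the departures of both samples of an array from the mean of their sex had correlations of 0.61, 0.68, 0.46 and -0.08 on arrays 1 to 4, and genes are not independent replicates. The fit was also run on simulated data, and the outcome of that run is not reported here. Members and lists were chosen with earlier results of these data known. The text names all members, the 5 genes of smallest p in each lineage list with Pdgfra, Sox10 and Myrf, the first 3 genes of each marker list and the 5 genes most like the members. Single values of some listed genes are not reported here.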

Additional observations from a re-analysis of the deposited data

Results flagged for a closer look

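Among 30 groups of 4 samples examined for a sample far from the rest, 1 stood out, and chance marks about 1 in 20 such groups. Male M2 was the highest of the 4 males at the brighter Mag probe, with a dye-centred log2 level of 0.38 against -0.04 for the next male, a gap of 0.853 of the whole range. At the other Mag probe M2 stood at 0.15 and the next male at 0.12. M2 is the sample with the high median level of cortex, hippocampus and striatum markers, although it was the lowest sample for 3 of the 11. The part of such tissue in its Mag level was not tested.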

How the results depend on the processing

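With the array as block in each ratio, 0 members passed the adjusted threshold under any of the 17 alternatives, and in the separate-channel fit with no replicate block 4 rather than 2 of the 9 had an unadjusted p under 0.05 (1 to 3 when an array was left out). Of 153 values for single members 150 kept their direction and their side of the threshold, and 3 reversed when an array was left out: Mag ran from -0.15 to 0.0404 and Olig2 from -0.18 to 0.0038, both above 0 without replicate 2, and Cnp from -0.69 to 0.0232, above 0 without replicate 3. The members' median stayed between -0.33 and -0.22 over all of them (-0.29 to -0.22 with an array left out). The share of all genes below 0 ran from 42.1% to 62.8% over the alternatives. Members with a dye difference numbered 0, and 1 in the separate-channel fit, with the authors' value table and with the mean of a gene's probes, 2 with median centring and 0 to 1 with an array left out. Mature oligodendrocyte genes lower in females at an unadjusted p under 0.05 numbered 5, and 0 without the dye term, 2 without background correction, 3 with offset 16, 9 with median centring, 2 with the scanner software's log ratio, 8 with the authors' value table and 0 to 6 with an array left out (0 to 1 higher, 0 to 3 past the adjusted threshold). Precursor genes so numbered 0, and 1 in the separate-channel fit, with the scanner's log ratio and with the row trend removed, 2 with the authors' table and 0 to 1 in each direction with an array left out. The cause of these shifts was not tested. A slide block could not be fitted, since there was 1 slide.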
